A study of Mus musculus with 10 samples.

Results

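TNGA cells are mouse embryonic stem (ES) cells in which a single allele of Nanog carries a green fluorescent protein (GFP) reporter. The transcriptome described here was that of TNGA cells grown in serum and leukaemia inhibitory factor (LIF) and given only vehicle, dimethyl sulfoxide (DMSO) at 0.1% of the culture volume, for 48 hours. It was read in 3 RNA-seq libraries, DMSO replicates A, B and C, of the 10 samples of the series. The other samples were 3 RNA-seq libraries of cells given 100 uM MB-3, an inhibitor of the histone acetyltransferase Kat2a, in the same volume of DMSO, and 4 chromatin libraries, and none of these was used here. The line, the reporter, the medium and the vehicle were common to all RNA-seq cultures, so no untreated cells and no other line stood beside them. Because 1 Nanog allele carries the reporter, the Nanog count may not be that of an unmodified line. Total counts were 48144367 in replicate A, 51137896 in replicate B and 46863700 in replicate C. A gene was kept if it had 10 or more counts in each of the 3 libraries, which 19076 of the 30677 listed genes had, and these held 99.9% of all counts. Levels are given as CPM (counts scaled to library size) corrected by the trimmed mean of M values (TMM), and 10 counts corresponded to 0.199 to 0.210 CPM. CPM grows with the length of a gene, so an order of genes by CPM is an order of counts, and levels of different genes are compared as CPM per kb of merged exons.

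ES cells are derived from the early embryo and can form all of its tissues. A small set of transcription factors, with Pou5f1 (Oct4), Sox2 and Nanog at its centre, keeps them in this state, and LIF acting through Stat3 together with factors in serum sustains the set in culture. Cells in serum and LIF are known to be mixed, with Nanog and the naive factors varying between cells, and bulk RNA gives only the average. Fewer cells of a kind and less RNA per cell therefore cannot be told apart at any of the levels below.

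The promoter sequences of a few genes are shown first, since the level of a gene and the CpG content around its start varied together across the transcriptome, as described further on. Each line gives 100 bases before the annotated start and 20 bases from it on, 5′ to 3′, from RefSeq (GRCm38.p6), with every CG in capitals. The RefSeq starts can differ from the outermost GENCODE starts of the genes, by 410 bases for Sox2, 115 for Neurod1 and 73 or fewer for the others printed. Of 16510 genes in both sets, 70.8% had a RefSeq start within 50 bases of that of the GENCODE principal transcript. Sox2 and Neurod1 have CG-rich windows, Pou5f1 and Nanog have CG-poor windows, and Hbb-bt, an adult beta globin, and Krtap3-1, a hair keratin-associated protein, were not listed in the count table.
Sox2, chr3:34649895-34650014, plus strand: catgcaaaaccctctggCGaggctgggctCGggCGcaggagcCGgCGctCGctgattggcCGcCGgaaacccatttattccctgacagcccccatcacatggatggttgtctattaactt
Neurod1, chr2:79456617-79456736, minus strand: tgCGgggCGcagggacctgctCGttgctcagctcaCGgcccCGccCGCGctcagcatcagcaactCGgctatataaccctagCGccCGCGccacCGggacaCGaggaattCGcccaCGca
Pou5f1, chr17:35505932-35506051, plus strand: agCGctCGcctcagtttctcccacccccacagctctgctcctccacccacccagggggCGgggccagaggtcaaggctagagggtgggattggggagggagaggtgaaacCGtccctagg
Nanog, chr6:122707389-122707508, plus strand: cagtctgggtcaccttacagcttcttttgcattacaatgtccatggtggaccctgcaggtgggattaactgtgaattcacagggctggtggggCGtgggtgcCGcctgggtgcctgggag
Hbb-bt, chr7:103813904-103814023, minus strand: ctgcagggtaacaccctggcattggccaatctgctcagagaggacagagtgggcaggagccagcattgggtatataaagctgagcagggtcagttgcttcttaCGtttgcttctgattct
Krtap3-1, chr11:99566611-99566730, minus strand: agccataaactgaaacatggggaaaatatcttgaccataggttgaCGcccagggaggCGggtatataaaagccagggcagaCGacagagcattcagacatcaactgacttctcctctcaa

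The ES cell label held for all 5 marker genes. Pou5f1, a POU homeodomain factor (ENSMUSG00000024406, chr17:35506018-35510772), was read at 650 CPM in replicate A, 713 CPM in B and 653 CPM in C. Sox2, its HMG-box partner (ENSMUSG00000074637, chr3:34650405-34652461), was read at 439, 476 and 436 CPM in the same order. Nanog (ENSMUSG00000012396, chr6:122707489-122714633) was read at 274, 262 and 256 CPM. All 3 core factors thus lay within a narrow band across the libraries, with the highest Pou5f1 and Sox2 in B and the highest Nanog in A. Esrrb, an orphan nuclear receptor of the naive state (ENSMUSG00000021255, chr12:86361117-86521628), was read at 698, 674 and 653 CPM. Zfp42 (Rex1), a zinc finger gene used as a marker of undifferentiated cells (ENSMUSG00000051176, chr8:43295063-43306980), was read at 514, 501 and 471 CPM. Both were highest in A and lowest in C. Per kb of exon, the order was Pou5f1 at 299 ± 15.7 CPM per kb (SD, n = 3), Zfp42 at 263 ± 11.8, Sox2 at 219 ± 10.9, Nanog at 118 ± 4.08 and Esrrb at 112 ± 3.73. These levels placed them at ranks 73, 88, 104, 215 and 232 of 13806 protein-coding genes kept. Nanog and Esrrb overlapped in their ranges over the libraries, and their order turned when the length of the longest transcript replaced that of the merged exons, with Esrrb then at 157 and Nanog at 119 CPM per kb. That length put Pou5f1 at 493 CPM per kb and Zfp42 at 269.7 CPM per kb. Sox2 overlaps another annotated gene and Pou5f1 overlaps one on the other strand, and whether reads were counted by strand is not given in the sources used here. A processed copy of Nanog held 9.43% of the summed counts of Nanog and the copy.

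**Figure D1:**
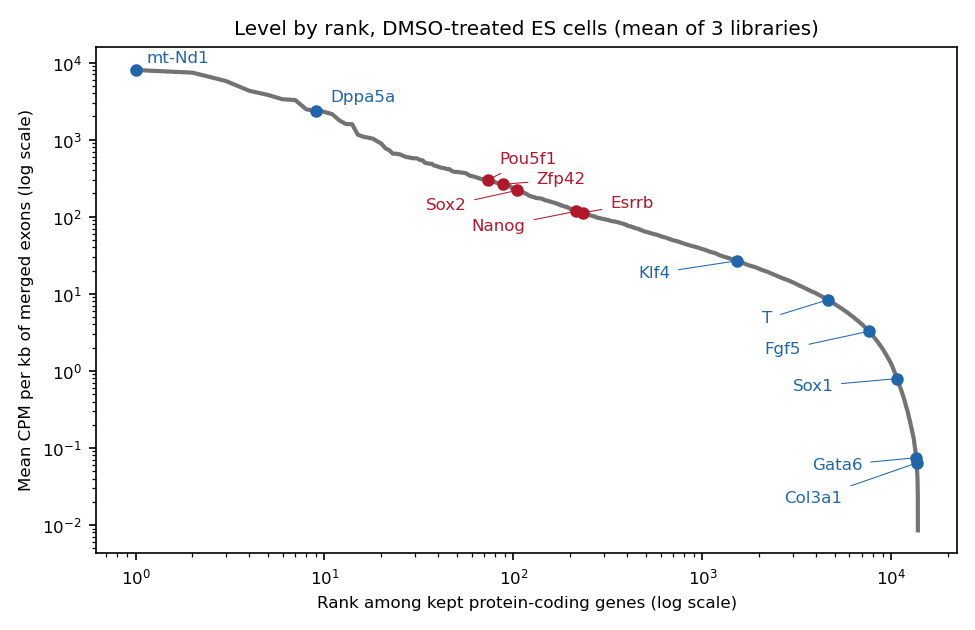
Mean level (CPM per kb of merged exons, log scale) against rank (log scale) for the 13806 kept protein-coding genes, each point the mean of 3 DMSO libraries. The 5 marker genes, in red, lie between ranks 73 and 232, and lineage genes such as Sox1 and Gata6 lie in the falling tail.

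The 3 libraries reached deep into the transcriptome. Of 22028 protein-coding genes annotated, 13806 (62.7%) were kept, 3822 had reads but fell under the count minimum, 220 were listed without a read in these libraries and 4180 were not listed. The table holds only genes with a sum of 2 or more over its 6 columns, so a gene that was not listed cannot be given a count. Among the kept protein-coding genes 12245 had a mean of at least 1 CPM, 8611 at least 10 CPM, 1761 at least 100 CPM and 44 at least 1000 CPM. The median was 4.13 CPM per kb, and the 10th and 90th percentiles were 0.243 and 29.0 CPM per kb. The 10 most counted genes held 9.47% of the counts in A, 9.72% in B and 9.20% in C, and it took 910, 867 and 936 genes respectively to reach 50% of the counts. Of the kept genes 51.2% overlap another annotated gene. The share of protein-coding genes kept ranged on the autosomes from 54.7% on chromosome 7 to 74.2% on chromosome 12. It was 51.7% on the X chromosome and 5.46% (10 of 183) on the Y chromosome.

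The top of the ranking was mitochondrial. The most counted row was Gm10925 with 17758 CPM in A, 19053 in B and 16821 in C, an unprocessed pseudogene on chr1:24613974-24614651 that is a nuclear copy of the mitochondrial gene mt-Atp6. Its sequence is 100% identical to mt-Atp6, a subunit of the ATP synthase, while mt-Atp6 itself was credited with only 400 CPM. A read from such a stretch could come from either locus, and the levels of the pair cannot be told apart. The next rows were of the same kind, namely Gm28437 (a copy of mt-Co3, 10080 CPM), Gm29216 (mt-Co1, 9903 CPM) and Gm28661 (mt-Co2, 9873 CPM), all within the same stretch of chromosome 1, and Gm13340 on chromosome 2, another copy of mt-Co1, stood at 6816 CPM. The remaining rows of the top 10 were mt-Co1 (8912 ± 347 CPM), mt-Cytb (8459 ± 385), Eef1a1 (8125 ± 321), mt-Nd1 (7651 ± 486) and Hsp90aa1 (6960 ± 583). Co1 and Cytb are subunits of respiratory complexes, Nd1 is a subunit of NADH dehydrogenase, Eef1a1 brings aminoacyl-tRNA to the ribosome and Hsp90aa1 is a cytosolic chaperone.

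Pseudogene rows took 21.8 ± 0.65% of all counts, nuclear protein-coding genes 72.7 ± 0.74%, mitochondrially encoded genes 4.21 ± 0.11% and long non-coding RNA genes 0.871%. By alignment of their sequences, 3739 of 5982 pseudogene rows with a read, holding 97.0% of pseudogene counts, could be paired with a gene they resemble over at least 50% of their length at 90% identity or more. Of these pairs 15 rows resembled a mitochondrial gene and held 6.38% of all counts, and the rest resembled a nuclear gene and held 14.8%. The glycolytic enzyme gene Gapdh, often used as a reference, shows the size of the effect. Gapdh itself was read at 287, 326 and 310 CPM in A, B and C, and its 119 listed copies raised the sum to 3663 ± 228 CPM. The ribosomal protein genes Rpsa and Rps2 stood at 44.2 and 50.3 CPM alone and at 3536 and 2999 CPM with their copies. Of 1468 nuclear protein-coding genes with a paired copy, 277 had more counts in the copies than in the gene. Of the kept protein-coding genes 90.04% had no paired copy, and among kept transcription factor genes 20 had one.

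Of the 14 functional classes, the mitochondrially encoded genes, cytosolic ribosomal proteins and translation factors held the most counts. The 37 mitochondrially encoded genes took 4.21 ± 0.11% of counts, or 10.6 ± 0.32% once the paired copies were added. The 84 cytosolic ribosomal protein genes were all kept, where 62.7% of all protein-coding genes were, and took 3.21 ± 0.14%, or 10.5 ± 0.47% with their 922 copies. Translation initiation and elongation factors took 2.79 ± 0.022% alone and 3.996 ± 0.054% with copies. In percentage points these 3 classes moved most with the copies. High mobility group proteins, which bend or bind DNA in chromatin, held fewer counts but also moved, from 0.149% to 0.259%. Heat shock proteins took 2.002 ± 0.079% of counts, led by Hsp90ab1 at 2133 and Hsp90aa1 at 1770 CPM per kb. The hnRNPs, SR proteins and spliceosome subunits, which process pre-mRNA, took 1.49% and all 67 were kept, with Hnrnpa2b1 highest at 206 CPM per kb. Nuclear-encoded oxidative phosphorylation subunits took 0.954%, with Atp5b, the catalytic beta subunit of ATP synthase, at 446 CPM per kb. Actins and tubulins took 0.730%, aminoacyl-tRNA synthetases 0.584%, proteasome subunits 0.475%, the 8 chaperonin subunits 0.445% and mitochondrial ribosomal proteins 0.355%. Replication-dependent histones, whose mRNAs mostly lack a poly(A) tail and are poorly caught by poly(A) enrichment, took 0.0190%, and replication-independent histones, led by H2afx and H3f3b, took 0.138%.

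**Figure D2:**
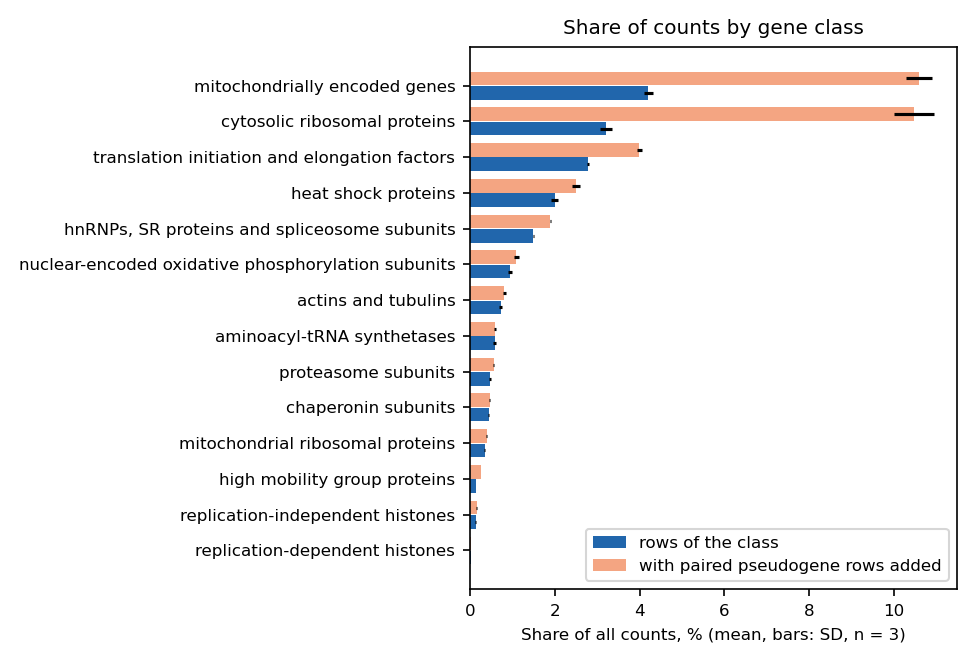
Share of all counts (%, mean of 3 DMSO libraries, error bars SD) for 14 gene classes, from the rows of the class alone (blue) and with the pseudogene rows that resemble them added (orange). Adding copies raised the cytosolic ribosomal proteins from 3.21% to 10.5% and the mitochondrially encoded genes from 4.21% to 10.6%, while chaperonin subunits and aminoacyl-tRNA synthetases changed little.

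Per kb of exon, the 20 highest protein-coding genes were again mostly mitochondrial or translational, with one exception tied to the cell type. Dppa5a (Esg1), an RNA-binding protein gene characteristic of ES cells, stood 9th of all protein-coding genes when copies were left out. It was read at 2382 CPM per kb in A, 2545 in B and 2095 in C. The genes above it were mt-Nd1 (7995 CPM per kb), mt-Cytb, mt-Co1, mt-Nd6, Rplp1 (3806 CPM per kb), mt-Nd2, Eef1a1 (3259) and mt-Nd4. Below it in the 20 came mt-Nd5, the 2 cytosolic Hsp90 genes, Rpl8, Rpl4, Rps27rt, Rps15, Eef2, the metal-binding metallothionein Mt2, the nucleolar chaperone Npm1 and Rpl36a-ps1. Rps27rt and Rpl36a-ps1, the latter with the name of a pseudogene, are annotated as protein-coding and so were not treated as copies of another gene. Whether their reads came from genes of similar sequence was not tested. Mt2 was read at 1030 ± 108 CPM per kb. This order took each gene without its pseudogene copies and does not hold with them. With copies mt-Atp6 rose from 400 to 18278 CPM and mt-Co2 from 244 to 11773 CPM. Dppa5a rose only from 1449 to 1717 CPM, at a similar exon length (619 bases against 681 and 684). Both mitochondrial genes then stood above it.

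All 49 members of the pluripotency lists were kept, where 62.7% of all protein-coding genes were. The 15 genes of the core list had a median of 118 CPM per kb and all lay above 10 CPM. Trim28, a corepressor that silences retroelements, led them at 1520, 1734 and 1498 CPM (381 ± 31.4 CPM per kb). Tdgf1 (Cripto), a Nodal co-receptor, was read at 650, 676 and 629 CPM, and L1td1, an RNA-binding protein derived from a LINE-1 element, at 653, 665 and 545 CPM. The least counted of the core list were Dppa4 at 58.2 CPM and Dppa2 at 48.4 CPM, a pair of neighbouring genes whose products act together. The 20 naive genes had a median of 40.2 CPM per kb. After Dppa5a and Zfp42 the highest were Spp1 (osteopontin) at 183 CPM per kb, Esrrb, Mybl2 at 111 and Klf2 at 103 CPM per kb. Klf4 stood at 84.1, 84.1 and 76.7 CPM and Klf5 at 83.1, 75.9 and 78.0 CPM, below Klf2 per kb (26.8 and 15.2 against 103 CPM per kb). Dppa3 (Stella) at 16.4, 14.9 and 18.3 CPM and Prdm14, which restrains DNA methylation, at 18.97, 19.5 and 16.4 CPM were among the less counted members, and Bmp4 was lowest per kb at 5.28 CPM per kb. Pseudogene copies held 63.5% of the summed counts of Dppa3 and its copies, which stood at 45.2 CPM, and raised Dppa4 and Dppa2 to 161 and 84.1 CPM. The values for Klf4, Klf5, Dppa3, Prdm14, Dppa2 and Dppa4 were chosen after they had been seen.

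The 14 genes of the primed list, which rise as cells leave the naive state, were kept as well, at a median of 5.19 CPM per kb. Dnmt3b, a de novo DNA methyltransferase, led at 341, 355 and 341 CPM (67.7 CPM per kb), followed per kb by Nodal at 59.5, 57.8 and 61.0 CPM and Tead2 at 85.4, 93.0 and 92.7 CPM. These 3 genes were held closely by all libraries. Otx2, a homeobox gene of early primed cells, was read at 51.5, 52.3 and 52.5 CPM, while Fgf5, a classical marker of the primed epiblast, was read at 7.99 CPM in A, 4.88 CPM in B and 11.6 CPM in C. Fgf5 was thus low in all libraries and spread more than Otx2 did. Counting the 3 lists together, summed levels were 5799, 6304 and 5532 CPM for the core, 5192, 5274 and 4784 CPM for the naive and 748, 773 and 767 CPM for the primed genes in A, B and C.

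Transcription factor genes were taken as 36 families with 549 annotated members, of which 353 were kept, a share near the 62.7% of all protein-coding genes. Of the kept genes 295 had a mean of at least 1 CPM and 199 at least 10 CPM, and their median was 2.53 CPM per kb against 4.13 CPM per kb over all kept protein-coding genes. Of the 15 highest per kb within these families, 9 also stand in the pluripotency lists. The families do not hold every such gene, and Zfp57, a naive-list gene at 95.0 CPM per kb, is outside them. Among the 36 families is a set of 22 genes picked as other pluripotency-linked factors, which supplied Zfp42, Utf1, Nanog and Mybl2. The overlap with the pluripotency lists was therefore partly fixed by the choice of genes. Pou5f1, Zfp42 and Sox2 came first. They were followed by Utf1, a chromatin-associated factor of undifferentiated cells, at 143, 195 and 150 CPM per kb in A, B and C, and by Atf4, an effector of the integrated stress response, at 154, 150 and 164 CPM per kb. Utf1 and Atf4 overlapped in range, so their order is not fixed by these libraries. Nanog, Esrrb, Mybl2 and Klf2 stood between 103 and 118 CPM per kb. Etv5, an Ets factor downstream of fibroblast growth factor signalling, was read at 98.8 ± 0.715 CPM per kb, and Nr0b1 (Dax1), an orphan receptor that binds Pou5f1, at 70.8 ± 8.13. The last of the 15 were E2f4 at 53.3, Mycn at 48.3, Sall1 at 46.4 and Cebpz at 38.5 CPM per kb. Families were drawn by gene symbol, and Cebpz stands here through its name, among the C/EBP, Atf and Creb genes.

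**Figure D3:**
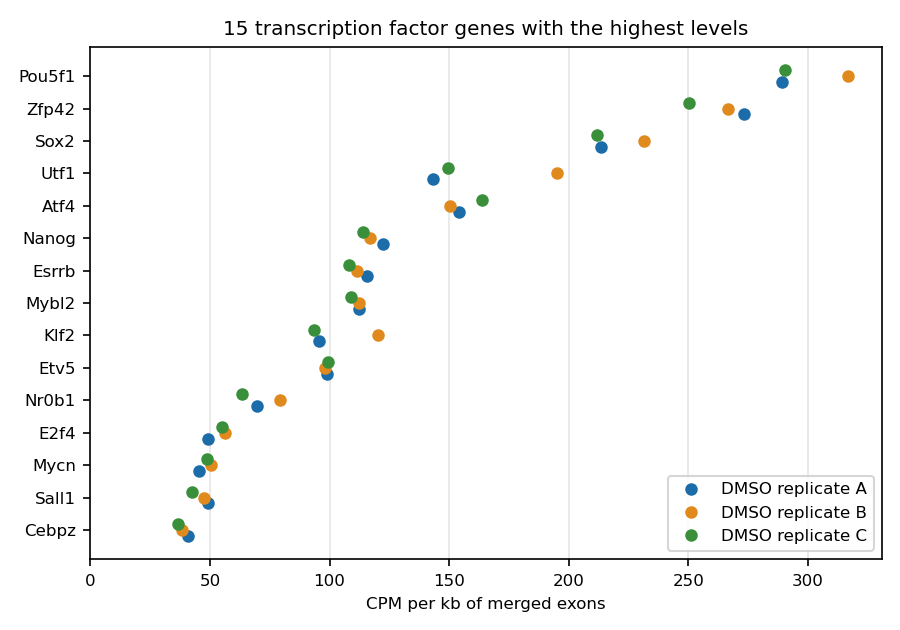
Level (CPM per kb of merged exons) of the 15 transcription factor genes with the highest mean, one point for each DMSO library. Pou5f1 lies between 289 and 317 CPM per kb, and the widest gap between libraries relative to the level is that of Utf1, highest in replicate B.

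Families differed in how many of their genes were kept, around the 353 of 549 over all of them. All 12 genes of the Myc and Max network, all 10 E2f and Tfdp genes, all 8 Smad genes, all 7 Fos and Jun genes, all 7 Id and E protein genes and all 4 Tead and all 4 Sall genes were kept, as were 38 of 40 Zbtb genes. The 4 Tcf7 and Lef1 genes and the 3 Cdx genes were all kept too, though only 1 Cdx gene had a mean of at least 1 CPM. Mycn stood above Myc, at 48.3 against 15.6 CPM per kb. Smaller shares were kept of some other families, namely 6 of 39 Hox genes, 3 of 9 Pax genes, 5 of 12 LIM homeodomain genes, 5 of 14 Nkx genes and 3 of 20 proneural bHLH genes. The highest Hox gene per kb was Hoxc13 at 1.04 CPM per kb (2.55 CPM), which was the only one at 1 CPM or more, and the highest Pax gene per kb was Pax6 at 2.08 CPM per kb, with 23.9, 28.8 and 20.1 CPM. Of the Gata genes 6 of 7 passed the minimum, but among them Trps1 alone had over 10 CPM, at 22.7 CPM, and the blood factor Gata1 and the endoderm factor Gata4 stood at 1.147 and 0.825 CPM. The Sox family (13 of 20 kept) and the Pou family (8 of 15 kept) each had a single member far above the rest. Sox2 stood at 219 CPM per kb and the next Sox gene, Sox12, at 17.3, and Pou5f1 at 299 CPM per kb and the next Pou gene, Pou3f1, at 5.56.

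Lineage genes that were kept stood mostly at low levels. Over 10 lists with 140 distinct genes, 74 were kept, against 62.7% of all protein-coding genes, 47 of these at 1 CPM or more and 15 at 10 CPM or more, at a median of 0.445 CPM per kb for those kept against 4.13 CPM per kb over all kept protein-coding genes. In the neural, blood and endothelial, fibroblast and germline lists the share kept was above that of all protein-coding genes. A further 46 had reads but too few, 19 were not listed, and the sperm protamine gene Prm1 was listed without a read, for which the limit that a count of 0 allows is 0.0598 to 0.0629 CPM per library. The 3 most counted were Tfap2c (AP-2 gamma), a trophoblast and germ cell factor that ES cells also express, at 66.5, 62.4 and 61.2 CPM, Tubb3 (neuronal beta tubulin) at 46.3, 49.5 and 43.9 CPM, and Nes (nestin) at 39.9, 29.2 and 62.2 CPM. Tfap2c and Tubb3 were close in all 3 libraries, whereas Nes was highest in C and lowest in B. Per kb they stood at 17.2, 24.9 and 6.82 CPM per kb.

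The lists differed in depth. Of 16 primitive streak and mesoderm genes 10 were kept, led per kb by Tcf15 at 22.4, 29.8 and 19.3 CPM (24.3 CPM per kb) and by T (brachyury), the founding T-box factor of mesoderm, at 16.5, 9.04 and 32.4 CPM (8.35 CPM per kb). T was highest in C and lowest in B, as were Eomes at 6.39, 4.50 and 10.1 CPM and Mixl1 at 1.598, 1.22 and 3.21 CPM, whereas Tcf15 was highest in B and lowest in C. Of 16 endoderm genes 10 were kept, with Lama1, a basement membrane laminin, at 37.4 ± 3.28 CPM and Dab2 at 7.89 ± 1.87 CPM, while Gata4, Gata6 and Sox17 stood at 0.825, 0.486 and 0.0688 CPM. Of 18 neural genes 12 were kept and 6 reached 10 CPM. Pax6 and Neurod1 stood at 24.3 and 14.95 CPM, Sox1, the earliest neural Sox gene, at 3.83 CPM, and the proneural Neurog2 at 0.0535 CPM. Of 11 trophoblast genes 6 were kept, with Cdx2, which sets up the trophectoderm, at 1.495, 0.637 and 2.72 CPM, and Elf5 and Gcm1 under the minimum. Eomes, Dab2, Gata6, Sox17, Pax6 and Neurod1 overlap a gene on the other strand, as do Des, Ttn, Sycp3 and Krt10 named below. Since the use of strand in the counting is not given, some of their reads may belong to the other gene.

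Of 15 muscle genes 5 were kept, with Des (desmin) highest per kb at 2.37 CPM per kb. Ttn (titin) had 37.1 CPM but, having by far the longest exons of the list, only 0.317 CPM per kb. The myogenic factors Myod1, Myog and Myf5 had between 0.0140 and 0.0479 CPM. Of 16 blood and endothelial genes 11 were kept, the most counted being the T cell receptor subunit gene Cd3e at 1.38 CPM, close to Tie1 and Cd34 at 1.32 and 1.31 CPM with ranges that overlap, and the adult beta globins Hbb-bs and Hbb-bt were not listed. Of 14 germline genes 10 were kept, all at 1 CPM or more, led per kb by Sycp3, a component of the meiotic chromosome axis, at 15.2, 12.1 and 13.02 CPM, Mael at 14.1 CPM and Ddx4 (Vasa) at 12.4 CPM. Of 9 epidermal genes Krt10 at 3.85 CPM and Krt14 at 0.787 CPM were kept. Of 12 liver and pancreas genes none was kept, and 11, among them Alb, Afp, Ins1 and Ins2, were not listed. Of 14 fibroblast genes 9 were kept, and which cells these reads came from was not tested. The highest was Mmp2 at 10.9, 10.1 and 12.1 CPM (3.27 CPM per kb), Twist1 and Thy1 followed at 1.24 and 1.13 CPM per kb, and the collagens Col1a1, Col1a2 and Col3a1 had 1.05, 1.86 and 0.626 CPM. The 14 fibroblast genes summed to 25.7, 22.2 and 28.3 CPM in A, B and C, with Lum, Postn, Prrx1, S100a4 and Fap under the minimum. Several values in this paragraph and the one before, among them those of Tie1, Cd34 and the master regulators that stood low, were chosen after they had been seen.

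**Figure D4:**
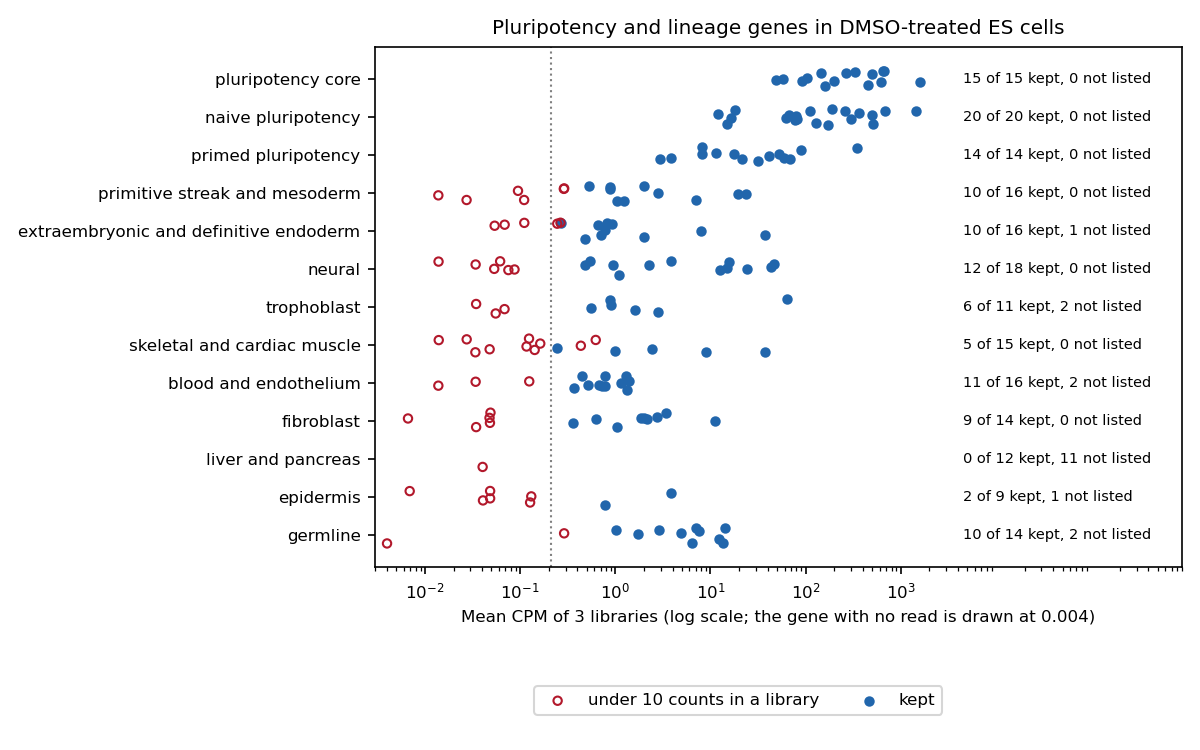
Mean CPM (log scale) of the listed genes of 13 lists, each point a gene averaged over 3 DMSO libraries, filled where it was kept and open where a library had under 10 counts. The dotted line marks 10 counts in the shallowest library, and the text at the right gives the number kept and not listed. Every core and naive gene lies above 10 CPM, while the other lists below the primed genes reach down to a few reads.

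Few genes were kept of 11 families known for single adult tissues. Of their 1683 members 15 were kept, where 62.7% of all protein-coding genes were, 1434 were not listed and the whole set summed to 45.3, 40.5 and 41.1 CPM. Of 1093 olfactory receptor genes 2 were kept, Olfr985 with 285, 267 and 239 counts (5.41 CPM) and Olfr1494 at 0.342 CPM. Of 329 vomeronasal receptor genes 2 were kept, and none of the 57 keratin-associated protein, 64 defensin, 25 prolactin family and 10 globin genes. The most counted of the 15 was Mup6, a major urinary protein gene, with 446, 485 and 488 counts (9.72 CPM), while the only other members of its family to be kept, Mup4 and Mup5, had 0.453 and 0.370 CPM. Major urinary protein genes are near-identical copies, so reads may be split between them and the level of 1 member is uncertain. Of 10 muscle myosin heavy chain genes 4 were kept, 3 of them at 1 CPM or more, with Myh13 and Myh7b at 4.55 and 4.26 CPM.

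All listed genes of DNA replication and the cell cycle were kept, where 62.7% of all protein-coding genes were. Their medians were 29.3 and 12.2 CPM per kb against 4.13 CPM per kb over all kept protein-coding genes. ES cells are known for a short cell cycle with a brief first gap phase. Each of the 31 replication genes lay above 10 CPM. The sliding clamp gene Pcna led at 390, 428 and 384 CPM (167 CPM per kb), and the helicase genes Mcm5, Mcm3 and Mcm7 followed at 122.7, 113 and 105 CPM per kb. Of the 24 cell cycle genes 20 reached 10 CPM, at levels that differed widely. Cdk4 stood highest at 159 CPM per kb, ahead of the anaphase activator Cdc20 at 105 and the mitotic cyclin Ccnb2 at 91.1 CPM per kb. Of the D cyclins, Ccnd1 and Ccnd3 stood at 8.63 and 6.80 CPM per kb and Ccnd2 at 0.189 CPM per kb, with 1.62, 1.83 and 1.89 CPM in A, B and C. The inhibitor genes Cdkn2a and Cdkn2b stood at 2.67 and 1.18 CPM, and the retinoblastoma gene Rb1 at 10.3 CPM. The cyclins, inhibitors and Rb1 named after Ccnb2 were chosen after their values had been seen.

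All 20 genes of DNA methylation and Polycomb silencing were kept, where 62.7% of all protein-coding genes were, at a median of 29.0 CPM per kb against 4.13 CPM per kb over all kept protein-coding genes. Dnmt3l, a cofactor of de novo methylation, led at 264, 313 and 251.4 CPM (92.4 CPM per kb), followed by the Polycomb accessory gene Mtf2 at 73.5 and Dnmt3b at 67.7 CPM per kb. Within the Tet family of 5-methylcytosine oxidases, Tet1 was read at 421, 362 and 333 CPM, Tet2 at 76.8, 64.4 and 54.6 CPM and Tet3 at 7.14, 7.15 and 6.22 CPM, or 24.1, 3.87 and 0.410 CPM per kb. All 12 acetyltransferase genes were kept, at a median of 11.4 CPM per kb, with Hat1, which acetylates newly made histones, highest at 138 CPM per kb. Kat2a, the enzyme that MB-3 targets, came next per kb at 126, 139 and 126 CPM (37.4 ± 2.10 CPM per kb), and its paralogue Kat2b stood at 62.6, 58.3 and 52.1 CPM (11.8 ± 1.08 CPM per kb). Kat2a was thus above Kat2b in each library. The Tet and Kat2 genes were chosen after their values had been seen.

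Signalling genes of several pathways were read. Of 32 ligand, receptor and target genes 31 were kept, where 62.7% of all protein-coding genes were. On the LIF side, the receptor gene Lifr stood at 38.3, 43.6 and 32.6 CPM, its partner Il6st (gp130) at 121, 98.0 and 108 CPM, Stat3 at 81.5, 76.6 and 79.1 CPM and the feedback inhibitor Socs3 at 135, 135 and 130 CPM, while Lif itself was read at 5.85, 4.62 and 7.55 CPM. Among fibroblast growth factor genes, the ligand Fgf4 stood at 171, 188 and 151 CPM, and per kb above Fgf5 and Fgf8 (53.2 against 3.26 and 2.12 CPM per kb). The receptor gene Fgfr1 at 7.66 CPM per kb stood above Fgfr2, Fgfr4 and Fgfr3 at 1.64, 0.704 and 0.248 CPM per kb. Nodal, its co-receptor Tdgf1 and its antagonists Lefty1 and Lefty2 were all read, at 59.4, 652, 89.2 and 79.4 CPM. Of the Wnt genes in the list Wnt3 had 2.81 CPM and Wnt3a was under the minimum. Apart from Tdgf1, Fgf4 and Lefty1, the 3 highest per kb, these genes were chosen after their values had been seen.

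The 3 libraries were close for most genes. Among 10174 kept genes at 10 CPM or more, the median coefficient of variation (CV) over the libraries was 5.63%, where counting alone would give 2.25%. A CV above 10% was seen for 1585 of them (15.6%), above 25% for 78 and above 50% for 13. Replicates B and C stood farthest apart, with 115 genes differing by 1.5-fold or more, 10 of them higher in B, against 54 genes for A and B and 30 for A and C. In 35 genes the highest library was at least 2-fold above the lowest, and in all 35 the order was C, then A, then B. That count rested on C and B, since it was 1 gene without C and 3 without B, against 36 without A. No library duplicated another, since the chi-square of the counts per gene was 8.67 to 15.4 between pairs, where sampling alone would give about 1.

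The genes that varied most were of several kinds. Tagln (transgelin), an actin-binding protein of contractile cells, was read at 37.2, 19.3 and 79.9 CPM in A, B and C (CV 68.5%). It was followed by T, by Ccn1 (37.9, 22.9 and 77.8 CPM), an immediate early matricellular gene, by Gbp2b (29.95, 14.2 and 53.2 CPM), by the simple epithelial keratin gene Krt8 (62.6, 35.4 and 122 CPM), by Gbp2, by Krt19 and by the growth hormone receptor gene Ghr. Gbp2b and Gbp2 are neighbouring interferon-inducible GTPase genes of similar sequence. Replicate C was highest and replicate B lowest for each of these genes. Of the list of 14 simple epithelial and contractile genes, 12 reached 10 CPM and 8 were among the 35, out of 10174 kept genes at 10 CPM or more. Of the genes at 10 CPM or more in other lists, 1 of 6 neural and 1 of 2 primitive streak and mesoderm genes were among the 35. The whole list of 14 simple epithelial and contractile genes summed to 612 CPM in A, 460 CPM in B and 946 CPM in C. That list was drawn up with the spread of these libraries known, so its spread is a description and supports nothing. The part of any kind of cell in the spread was not tested. At the other end, the 5 genes with the smallest CV were Tnpo3, Fbxl5, Vcp-rs, Acsf3 and Gja1, which with 3 libraries is no sign of lasting stability.

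**Figure D5:**
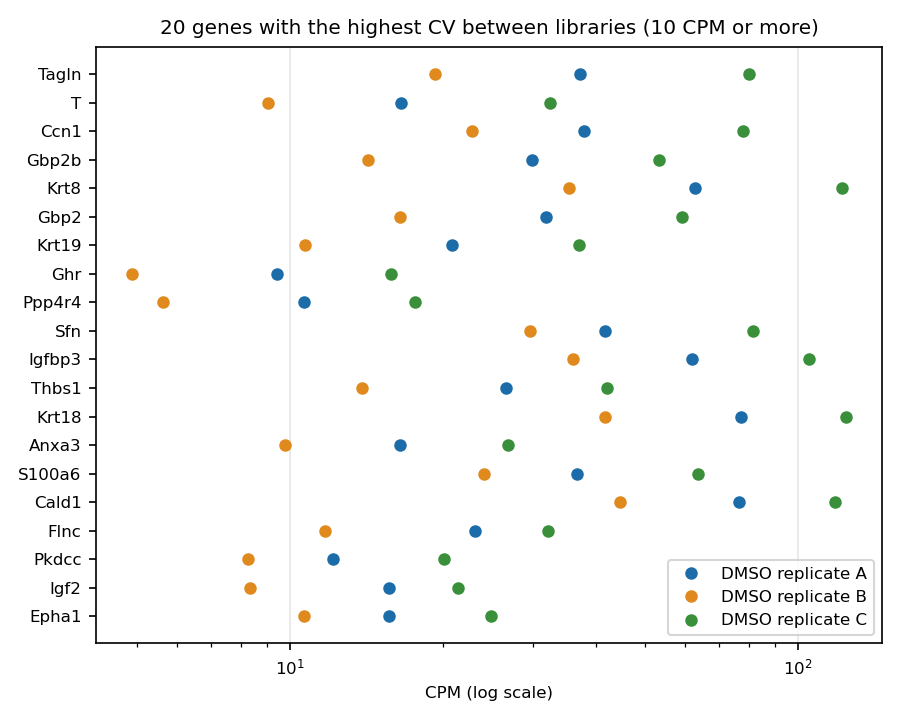
CPM (log scale) of the 20 genes with the highest CV among kept genes at 10 CPM or more, one point for each DMSO library. In all 20 genes replicate C (green) is highest and replicate B (orange) lowest, with replicate A (blue) between them.

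The sequence around the start of a gene varied with its level. The window taken was 250 bases before to 50 bases from the start of the principal transcript, which could be read from the GRCm38 genome for 21853 of 22015 nuclear protein-coding genes. Vertebrate genomes have lost most CG dinucleotides, and CpG islands, which mark the promoters of most broadly expressed genes, are where they remain. The ratio of observed to expected CG had a median of 0.739 in the kept genes, 0.284 in genes with reads under the minimum, 0.186 in the genes without a read and 0.143 in those not listed. Within the kept genes it rose with level when these were split into 4 equal groups, from a median of 0.554 in the lowest group to 0.727, 0.791 and 0.813. A ratio of 0.6 or more was found in 67.6% of the kept genes, 4.82% of those not listed and 46.9% of all windows. The letters TATAAA, looked for on either strand and anywhere in the window, were in 7.24% of kept windows, 26.99% of windows of genes not listed and 12.5% of all. The median GC content of these windows was 60.3%, 43.7% and 56% in the same order. The part of base composition in the TATAAA shares was not tested. The medians are over genes, which are no independent replicates, and are given with no test.

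Families lay at both ends. The 84 cytosolic ribosomal protein genes had a median ratio of 0.829 and the 1092 olfactory receptor genes one of 0.0893. Of the olfactory receptor windows 33.5% held TATAAA, at a median GC content of 37.3%. Low expression did not go with a CG-poor start in each family. The 39 Hox genes, of which 6 were kept, had a median ratio of 0.745, and the neural list one of 0.698, whereas the muscle, fibroblast and liver and pancreas lists had 0.2797, 0.290 and 0.217. In the RefSeq windows from which the sequences shown above were taken, Sox2 had a ratio of 0.819 and Neurod1, read at only 14.95 CPM, one of 0.837, while Pou5f1 and Nanog, among the highest transcription factor genes, had 0.374 and 0.192. The printed stretch of Nanog holds 2 CG and that of Neurod1 holds 15. Hbb-bt and Krtap3-1 had ratios of 0.0633 and 0.294, and TATAAA stands in both windows.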

How the data were processed

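Per the labels and the study's methods, TNGA cells were dissociated, RNA was taken in Trizol, and poly(A)-enriched libraries were sequenced single-end on a HiSeq 4000. The authors trimmed the reads, aligned them to mm10 with Bowtie and counted them over exons with GenomicAlignments. Versions, the annotation, the use of strand and the treatment of reads with several matches are not given in the sources used here. The deposited values are raw counts per gene in a table of 6 columns, of which the 3 DMSO columns were used. Its lowest row sum is 2. Whether the replicates were separate passages is not stated.

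Gene identifiers were matched to GENCODE M21, which named 30540 of 30677 rows (137 others held 0.0770% of counts). TMM factors (0.982 to 1.02) were computed on the kept genes with edgeR 4.0.16 in R 4.3.3, with total counts as library sizes. CPM was divided by the merged exon length for comparisons between genes. Means are given ± SD over 3 libraries. No test was run, and with raw counts the depth of 46863700 or more per library made 1 TMM-corrected CPM equal to at least 47.7 counts. The limit of 3 counts for a count of 0 covers counting error only. Pseudogene transcripts were paired with protein-coding and mitochondrial genes with BLAST 2.17.0. Promoter windows came from the GRCm38.p6 genome at the start of the GENCODE principal transcript, and the printed sequences from RefSeq windows. The scripts were tested on simulated data.

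Genes named in the text are the 5 markers, the 10 with the highest CPM, the 20 protein-coding genes and 15 transcription factor genes with the highest CPM per kb, up to 3 leading members of each list or class (up to 6 for pluripotency lists), the 3 highest lineage genes with those without a read, and the 8 genes with the highest and 5 with the lowest CV. Others were named too. Not all of these, such as Fgf5, Gapdh, Rpsa and Rps2, are marked as chosen after their values were seen. The genes, lists, families and classes were chosen with earlier results of these data known. Alternatives were other scaling factors, other filters, removal of each library, removal of mitochondrial, overlapping or non-coding genes, the longest transcript as length and, added after seeing the data, the summing of pseudogene copies into the gene they resemble and the removal of each library for the genes that spread 2-fold.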

Additional observations from a re-analysis of the deposited data

How the results depend on the processing

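No paired analysis was possible because a single group of libraries was described and no result came from a test. Over 21 results, 121 alternative values were computed, 91 of which moved by less than the spread between libraries (for counts of genes, by less than 1.5-fold). Leaving out each library in turn gave 48 of the 121 values, and 2 moved further, both for the count of genes spread 2-fold or more, which was 35 with all libraries and 1 to 36 without one (1 without C, 3 without B), an alternative chosen after seeing the data. Other scaling factors moved no result further. Restricted to genes that overlap no other gene, 179 transcription factor and 41 lineage genes were kept, and 42 lineage genes with a minimum of 1 CPM in all libraries. The 10 most counted genes held 8.79% without mitochondrially encoded genes, 7.96% among protein-coding genes and 12.05% with copies summed, an alternative chosen after seeing the data. With copies summed the shares were 10.5% for cytosolic ribosomal proteins, 10.6% for mitochondrially encoded genes, 1.10% for nuclear oxidative phosphorylation subunits and 3.996% for translation factors. Among protein-coding genes only they were 4.19%, 5.13%, 1.24% and 3.64%, since the total is then smaller. Among non-overlapping genes the last 3 were 2.34%, 0.645% and 1.31%, and without mitochondrial genes translation factors took 2.91%. Scaled to protein-coding genes only, Pou5f1 stood at 877 CPM, Sox2 at 587, Nanog at 344, Esrrb at 881 and Zfp42 at 646 CPM. Without mitochondrial genes Nanog stood at 276 and Esrrb at 705 CPM, and with its copy Nanog stood at 291 CPM. With the longest transcript as length, Pou5f1 stood at 493 and Esrrb at 157 CPM per kb. Depth limits statements on genes under 10 counts, and genes not listed have no value at all.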

Other observations

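Reference genes did not all behave as reference genes in these cells. Of 11 such genes all were kept, where 62.7% of all protein-coding genes were, and 10 stood above 10 CPM. Without pseudogene copies they were led by Actb at 1072, 1201 and 1058 CPM in A, B and C (414 CPM per kb). Gapdh with its copies, as given earlier, stood above these Actb values. Hprt, a purine salvage enzyme gene on the X chromosome (chrX:52988137-53021659), was read with only 12, 13 and 11 counts, or 0.249, 0.259 and 0.231 CPM, at rank 12694 of the kept protein-coding genes. E14Tg2a, an ES cell line from which Nanog reporter lines have been made, is known as Hprt-deficient. The source of the low count was not tested. Pgk1 and Ppia stood at 28.3 and 109 CPM by themselves, with most counts of the pairs in pseudogene rows.

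The Y-linked genes Eif2s3y, Ddx3y and Uty were read at 124, 79.3 and 54.0 CPM, whereas Kdm5d, on the same chromosome, had 0.187, 0.279 and 0.0210 CPM and was not kept. Xist, the RNA that coats the inactive X chromosome, was read at 4.42, 4.82 and 3.81 CPM, and its antisense partner Tsix, which shares exonic sequence with it, at 9.69, 7.71 and 7.29 CPM. Without strand in the counting, reads of the pair cannot be told apart.

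Of 15 long non-coding RNA genes chosen for the list 13 were kept, against 967 of all 3799 listed long non-coding genes. Lncenc1, a non-coding RNA abundant in ES cells, led per kb at 445, 431 and 414 CPM (130 CPM per kb), followed by Malat1 at 597, 445 and 518 CPM and Gas5 at 190, 197 and 200 CPM. The maternally expressed imprinted RNAs Meg3 and H19 lay far apart, at 314, 290 and 292 CPM (16.5 CPM per kb) against 0.436, 0.697 and 1.01 CPM (0.290 CPM per kb). Of 9 genes of the rare two-cell-like state 2 were kept, Zscan4d at 1.16, 0.857 and 0.461 CPM and Zscan4a at 0.830, 0.956 and 0.608 CPM, and the rest were under the minimum. Zscan4 genes are near-identical copies, so the level of 1 member is uncertain. Among glycolytic genes taken without pseudogene copies, the highest per kb were Aldoa at 380, Ldhb at 347 and Pkm at 202 CPM per kb. With paired copies Pkm rose from 1008 to 2600 CPM, and Gapdh, with 4133 exon bases, from 308 to 3663 CPM. The order per kb does not hold with copies, since Gapdh then stood above Pkm. The genes Hprt, Kdm5d, Meg3 and H19 were chosen after their values had been seen.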
